A study of Mus musculus with 8 samples.

Results

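The 10 genes examined here encode Ift80 and 9 further subunits of the intraflagellar transport machinery (Ift20, Ift27, Ift46, Ift52, Ift57, Ift74, Ift81, Ift88 and Ift140), out of the 47937 genes in the deposited count table. Ift80 was selected on its difference between the groups described below, and the other 9 were taken with it as subunits of the same particles, so the differences of all 10 genes between these groups are given as a description, without a test. RNA of mature CD8 single-positive (CD8SP) thymocytes, sorted as TCRb+ and MHC-I high, was sequenced from 8 mice aged 6 to 7 weeks, with 1 library per mouse. The 4 Ndrg3ctrl mice were Ndrg3 +/fl;Lck-cre+ and the 4 Ndrg3TKO mice were Ndrg3 fl/fl;Lck-cre+, so that controls carried Cre and a floxed allele too, and Cre was driven by the proximal Lck promoter, which is active from early thymocyte stages. Library totals ranged from 21126698 counts in Ndrg3ctrl replicate 2 to 32668081 in Ndrg3TKO replicate 2, with medians of 27972527.5 and 31022668.5 in the respective groups (exact permutation test over the 70 splits, 2-sided, p = 0.0571, where the smallest p is 0.0286). In bulk RNA of this kind, fewer cells of a type and less RNA per cell cannot be told apart.

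Intraflagellar transport carries cargo along the microtubules of cilia. IFT-B particles travel to the tip with kinesin-2 motors, IFT-A particles take part in the return with dynein-2 and in the entry of membrane proteins, and the BBSome links membrane cargo to these trains. Lymphocytes are among the few vertebrate cells that do not form a primary cilium, yet T cells use IFT20, and with it IFT57 and IFT88, to recycle T cell receptors to the immune synapse.

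The labelled cell type was matched by its markers. Cd8a, the CD8 alpha chain, had a normalized count (the count per TMM-scaled library, brought to the average library total) of 39540 ± 549 (SD, n = 4) in Ndrg3ctrl and 39077 ± 967 (SD, n = 4) in Ndrg3TKO, and Cd8b1 had 23722 ± 1635 and 23339 ± 1015. Cd4 stood at 19.3 ± 15.9 and 16.3 ± 4.07 on the same scale. Ndrg3, the targeted gene, was counted over all its exons and fell by 0.64 on the log2 scale (standard error, SE, 0.0526), with an adjusted p of 1.04e-05 (quasi-likelihood test of edgeR, Benjamini-Hochberg adjustment over all tested genes), from 2335 ± 28.7 to 1499 ± 87.2 normalized counts, and every Ndrg3TKO library lay below every Ndrg3ctrl library. Adjusted p-values come from this test unless DESeq2 is named. Summed counts of 4 Y-linked genes were 340.5 CPM (counts scaled to library depth) in Ndrg3ctrl replicate 2, 379 in Ndrg3TKO replicate 2 and 416 in Ndrg3TKO replicate 3, and at most 0.0752 in the other 5 libraries, so the groups did not hold the same number of libraries with Y-linked RNA.

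All 10 genes passed the filter on low counts, which kept 14633 genes. Their levels spanned a wide range when set against exon length, as RPKM (reads per kilobase of exon, scaled to the depth of the TMM-scaled library). Ift80 had the highest level, 21.5 ± 1.91 RPKM (SD, n = 4) in Ndrg3ctrl and 30.5 ± 2.73 (SD, n = 4) in Ndrg3TKO. In Ndrg3ctrl alone it lay above 83.3% of the 14568 tested genes with an exon length, and above 86.7% of them with the length of each gene's longest transcript (35.1 RPKM). The other levels are given over the 8 libraries of both groups (SD, n = 8). Ift80 was followed by Ift52, a structural subunit of the IFT-B core, at 14.2 ± 0.285 RPKM, and by Ift20, the peripheral IFT-B subunit that also resides at the Golgi, at 10.3 ± 0.884. The ranges of these 3 genes over the 8 libraries did not overlap. Ift140, an IFT-A subunit, came next with 7.36 ± 0.308 RPKM, apart from its neighbours in the order. Ift46, an IFT-B core subunit needed for the transport of dynein arms, had 4.42 ± 0.376 RPKM, and Ift27, a Rab-like small GTPase of the core, had 3.89 ± 0.355. Ift46 lay above Ift27 in 8 of 8 libraries, but with the longest transcript as the length in 1 of 8, so their order depended on the length used. Ift88, Ift57 and Ift74 lay together at 1.86 ± 0.117, 1.66 ± 0.260 and 1.65 ± 0.231 RPKM, each overlapping the next. Within libraries, Ift88 lay above Ift57 in 7 of 8 and Ift57 above Ift74 in 4 of 8. Ift81, which with Ift74 forms the tubulin-binding module of IFT-B, was the lowest at 0.201 ± 0.0625 RPKM, and the level of its partner Ift74 was 8.21 times as high with the union of exons, 5.15 times with the longest transcript and 4.62 times with the exons of coding transcripts, the last a setting chosen after seeing the data.

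**Figure D1:**
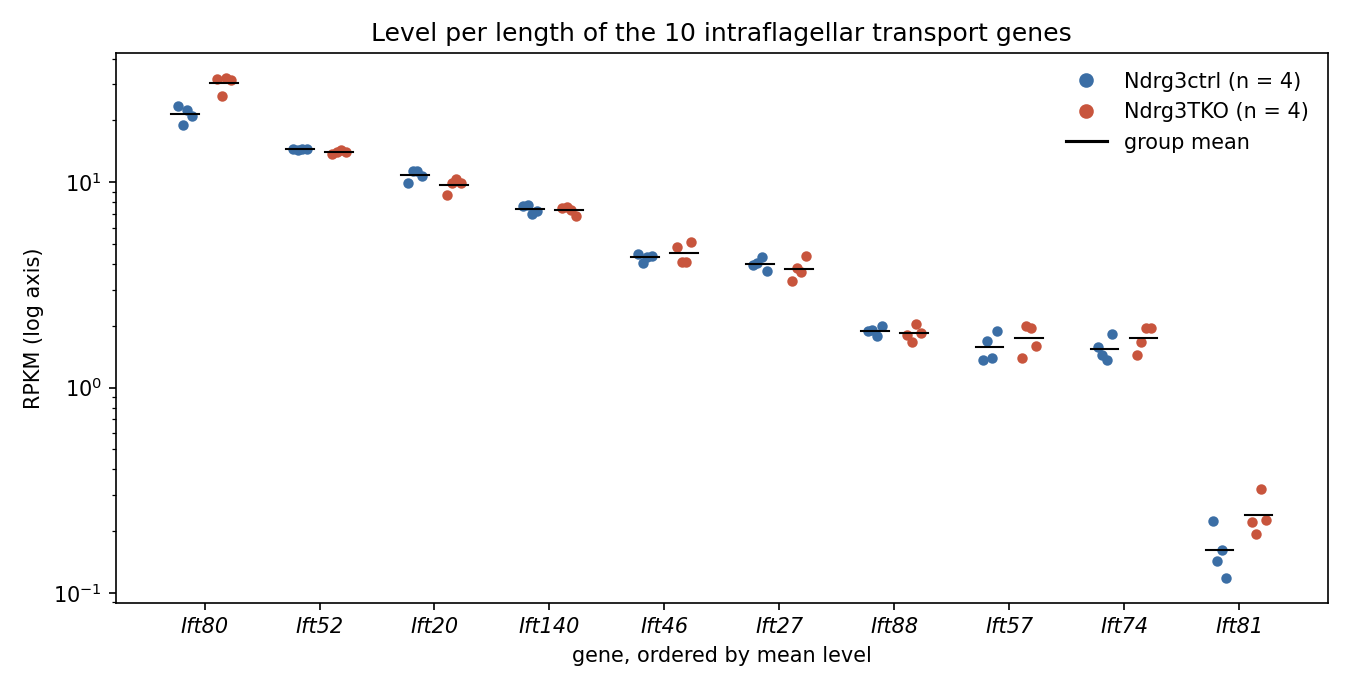
Level per length of each gene in every library, in RPKM on a log axis, with genes ordered by their mean over all 8 libraries and black lines marking the group means. Ift80 stood above the other 9 genes in each library, between 19.1 and 32.2 RPKM, and Ift81 stood below them, between 0.119 and 0.320 RPKM.

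How far Ift80 stood above the rest depended on the length assigned to it. Its 12 annotated transcripts, 5 of them coding and 5 with a retained intron, cover 12428 exon bases, and 65.7% of these bases belong to non-coding transcripts only, the largest such share among the 10 genes. With the union of all exons the mean Ift80 level over both groups was 1.82 times that of Ift52, and in Ndrg3ctrl alone 1.49 times. With the longest transcript of each gene (7616 bases for Ift80) it was 2.39 times that of Ift52, and 1.95 times in Ndrg3ctrl alone. With the exons of coding transcripts alone (4259 bases for Ift80), a setting chosen after seeing the data, it was 4.50 times over both groups. Under each of the 3 lengths Ift80, Ift52 and Ift20 led in this order and Ift81 was last, whereas the order of the genes between them changed. In counts without regard to length, Ift80 held 57.2% to 62.2% of all counts assigned to the 10 genes in the 4 Ndrg3ctrl libraries and 65.4% to 69.6% in the 4 Ndrg3TKO libraries.

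Ift80 is a peripheral IFT-B subunit, mutated in human skeletal ciliopathies, and its gene (ENSMUSG00000027778) lies on the minus strand of chromosome 3 of GRCm38 (chr3:68892499-69004570). Its normalized count was 8459, 6862, 8061 and 7569 in Ndrg3ctrl replicates 1 to 4. In Ndrg3TKO replicates 1 to 4 it was 11427, 9491, 11568 and 11357. The groups did not overlap, and replicate 2 was the lowest library of each group. The mean was thus 7738 ± 688 (SD, n = 4) in Ndrg3ctrl and 10961 ± 984 (SD, n = 4) in Ndrg3TKO, a log2 fold change of 0.50 (SE 0.0751) or 1.42-fold. Among the 5 libraries without Y-linked RNA, the 3 Ndrg3ctrl libraries ranged from 7569 to 8459 and the 2 Ndrg3TKO libraries were at 11357 and 11427. Among the 3 libraries with Y-linked RNA, Ndrg3ctrl was at 6862 and Ndrg3TKO at 9491 and 11568. Leaving out any 1 library kept this log2 fold change between 0.45 and 0.56. No exon base of Ift80 lies in an exon of another gene, and 1.36% of the stretches of 50 bases in its transcripts also occur in transcripts of other genes.

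The other peripheral IFT-B subunits on the list had smaller log2 fold changes. Ift20 had 478 ± 29.3 normalized counts (SD, n = 4) in Ndrg3ctrl and 429 ± 33.5 in Ndrg3TKO, with a log2 fold change of −0.15 (SE 0.0850). Ift57 had 131 ± 20.4 and 144 ± 23.6 (log2 fold change 0.14, SE 0.157). The libraries of the groups overlapped for both genes. Of the exon bases of Ift57, 225 also lie in exons of the antisense gene Gm15518, and since the strand setting of the counting is not stated, reads of such pairs cannot be told apart.

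The IFT-B core subunits Ift27, Ift46, Ift52 and Ift88 had log2 fold changes of −0.08 (SE 0.102), 0.07 (SE 0.0803), −0.04 (SE 0.0517) and −0.04 (SE 0.10), each within 1 SE of 0. Ift52 varied least, from 1111 to 1178 normalized counts over all 8 libraries. Ift88, whose exons share 67 bases with the antisense gene Ift88os, ranged from 224 to 272 normalized counts. Ift74 stood at 119 ± 15.3 normalized counts (SD, n = 4) in Ndrg3ctrl and 135 ± 18.4 in Ndrg3TKO (log2 fold change 0.18, SE 0.147). Ift81 was read at low depth, with 39, 17, 28 and 19 raw counts in Ndrg3ctrl replicates 1 to 4 and 39, 36, 56 and 43 in Ndrg3TKO. After normalization its Ndrg3ctrl libraries lay between 20.1 and 37.8 and its Ndrg3TKO libraries between 32.7 and 54.1, so the groups overlapped through Ndrg3ctrl replicate 1. Its log2 fold change of 0.55 was as large as that of Ift80 but came with an SE of 0.253. Ift140, the IFT-A subunit, had 1789 ± 79.4 and 1761 ± 77.8 normalized counts in Ndrg3ctrl and Ndrg3TKO (log2 fold change −0.02, SE 0.0541).

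Across the 10 genes the median log2 fold change was 0.02, against −0.0033 over all tested genes, and 5 of the 10 were above 0. Ift80 was the 1 gene of the 10 past an adjusted p of 0.05. That threshold was passed by 168 of all tested genes, or 1.15%, of which 116 were higher in Ndrg3TKO (0.793% of those tested). It was also the 1 gene of the 10 in which the 4 libraries of each group did not overlap, which was the case for 7.04% of all tested genes. Because Ift80 was selected on this contrast, nothing is read from these counts. Without Ift80 the median over the remaining 9 genes was −0.02, ranging from −0.15 to 0.55.

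**Figure D2:**
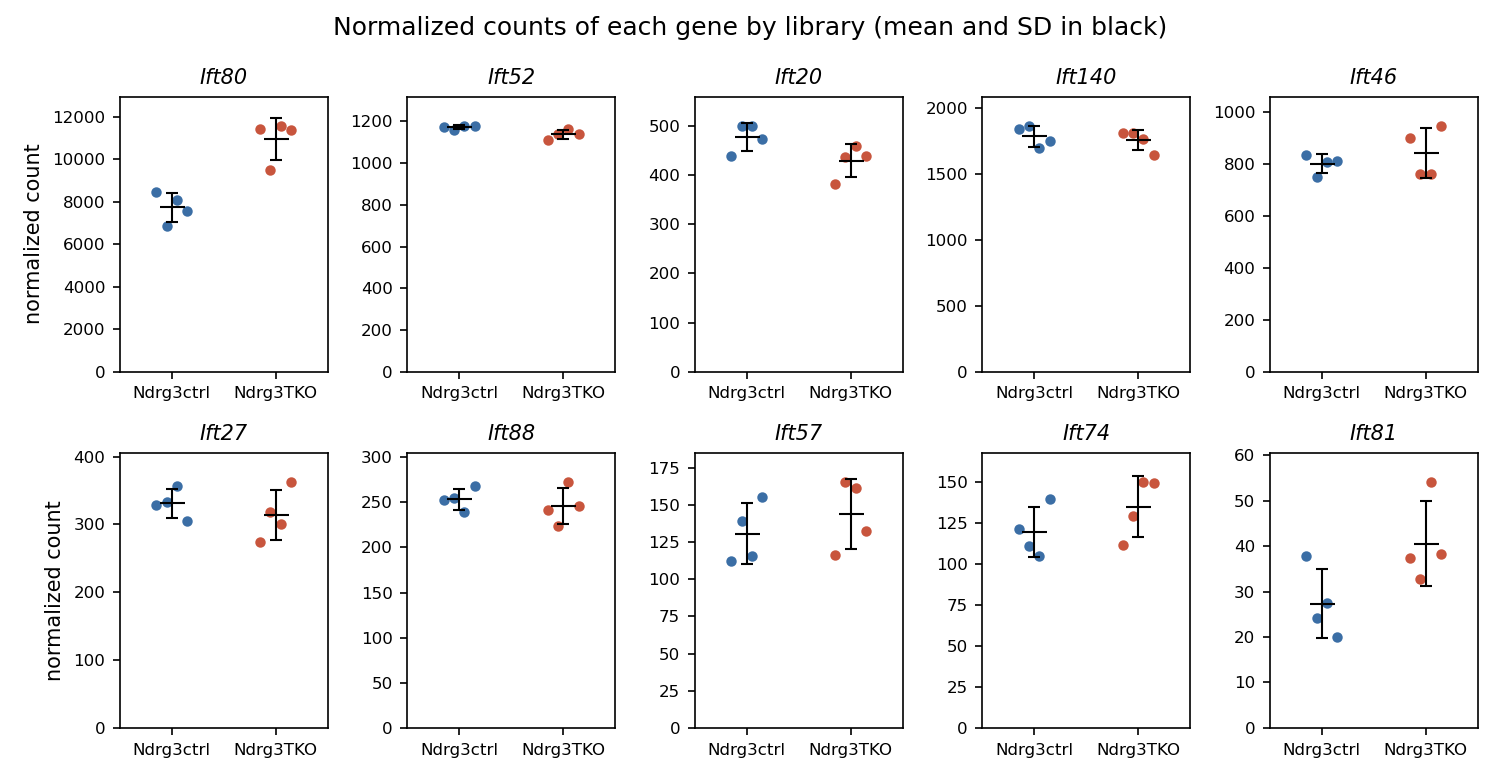
Normalized count of each gene in every library, with the mean and SD of each group in black and each axis starting at 0. Groups were apart for Ift80 (7738 ± 688 against 10961 ± 984) and overlapped in the other 9 panels.

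Once the group means were removed, the 10 genes did not vary as a block across libraries. The correlation of these deviations with Ift80 ranged from r = −0.62 for Ift57 to 0.68 for Ift81 (8 libraries sharing depth and scaling, given as a description). Among all pairs of the 10 genes, r ran from −0.71 for Ift46 and Ift57 to 0.72 for Ift52 and Ift74. The partners Ift74 and Ift81 had r = 0.08.

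The wider machinery was examined with 8 lists of other genes, 92 in all, of which 77 were tested. A single gene of the 77, or 1.30%, passed the threshold, close to the 1.15% of all tested genes, and the median log2 fold change of the 77 was −0.0041. As background for the counts below, 1588 of the 14633 tested genes, or 10.9%, had an unadjusted p under 0.05 in edgeR, and 309 of the 16037 genes with an adjusted p in DESeq2, or 1.93%, passed there. Among the other IFT-B subunits, 0 of 7 tested genes passed (1 at an unadjusted p under 0.05 in edgeR, and 0 past the adjusted threshold in DESeq2), with a median of −0.13. Cluap1, also named Ift38, had the most counts of these (608 ± 39.0 and 666 ± 75.5 normalized counts, adjusted p = 0.641), and Ttc30b, a paralog of Ttc30a1, had the smallest p (log2 fold change 0.37, SE 0.163, adjusted p = 0.429). These Ttc30 genes are near-identical copies, so their split of reads is uncertain, and Ttc30a1 had a log2 fold change of −0.37 (SE 0.174, adjusted p = 0.467). Among the other IFT-A subunits 0 of 4 tested genes passed (0 at an unadjusted p under 0.05 in edgeR, and 0 past the adjusted threshold in DESeq2). Ttc21b, also named Ift139, had the most counts of these (log2 fold change 0.05, SE 0.0871, adjusted p = 0.890) and Ift122 the smallest p (0.28, SE 0.154, adjusted p = 0.558).

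No motor gene passed the test. Of the kinesin-2 genes 0 of 4 tested passed and of the dynein-2 genes 0 of 5 (in both lists 0 at an unadjusted p under 0.05 in edgeR and 0 past the adjusted threshold in DESeq2). Kif3b, the kinesin-2 motor subunit with the most counts, had 2558 ± 118 and 2372 ± 148 normalized counts in Ndrg3ctrl and Ndrg3TKO (log2 fold change −0.11, SE 0.0565, adjusted p = 0.523). Dync2h1, the dynein-2 heavy chain, had 1100 ± 113 and 1140 ± 61.6 (log2 fold change 0.05, SE 0.0748, adjusted p = 0.864), and Wdr60, its intermediate chain, had the smallest p of that list (−0.38, SE 0.235, adjusted p = 0.609). Of the BBSome and its loading factors 0 of 12 tested genes passed (1 of 12 at an unadjusted p under 0.05 in edgeR, against 10.9% of all tested genes, and 0 past the adjusted threshold in DESeq2). The former was Lztfl1, a regulator of BBSome traffic, with 1601 ± 134 and 1902 ± 233 normalized counts (log2 fold change 0.25, SE 0.0871, adjusted p = 0.286). Over the 8 fits with 1 library left out, its log2 fold change lay between 0.19 and 0.33 and its adjusted p between 0.0326 and 0.560. It passed in 1 of them, without Ndrg3TKO replicate 2, and also with the replicate number as a block (adjusted p = 0.00478).

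The gene that passed was Rfx1, on the cilium assembly list, where 1 of 22 tested genes rose and 0 fell (3 of 22 at an unadjusted p under 0.05, against 10.9% of all tested genes). RFX1 belongs to a family of transcription factors that bind the X-box, a paired motif found in promoters of many ciliary genes, and RFX2 and RFX3 of this family are known activators of ciliary genes. Rfx1 (ENSMUSG00000031706, chr8:84066834-84096992, plus strand) had 3348, 3226, 3464 and 3443 normalized counts in Ndrg3ctrl replicates 1 to 4. In Ndrg3TKO replicates 1 to 4 it had 5107, 4609, 5185 and 4339. The groups did not overlap, the log2 fold change was 0.51 (SE 0.0605, adjusted p = 4.46e-04), and the gene passed with each library left out in turn, with values between 0.47 and 0.56. In the libraries without Y-linked RNA it stood between 3348 and 3464 in Ndrg3ctrl and at 4339 and 5107 in Ndrg3TKO, and in those with Y-linked RNA at 3226 in Ndrg3ctrl and at 4609 and 5185 in Ndrg3TKO. Of its exon bases, 42 also lie in the antisense gene C330011M18Rik.

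The other RFX genes on this list were not past the threshold. Rfx3 and Rfx2, singled out after their values were seen, had log2 fold changes of 0.28 (SE 0.0776, adjusted p = 0.140) and 0.22 (SE 0.0871, adjusted p = 0.372), and in both the 4 Ndrg3TKO libraries lay above the 4 Ndrg3ctrl libraries, as in 3 of the 22 tested genes of the list, while the groups did not overlap in 7.04% of all tested genes. With the presence of Y-linked RNA as a covariate Rfx3 passed (0.34, SE 0.0428, adjusted p = 3.37e-04), as with the replicate number as a block (adjusted p = 0.00136). It did not pass in DESeq2 (adjusted p = 0.0623). With 1 library left out in turn it passed in 0 of 8 fits (adjusted p between 0.110 and 0.367). Rfx7, with the most counts of the list, had 8960 ± 393 and 9663 ± 444 normalized counts (0.11, SE 0.0530, adjusted p = 0.482), and Rfx5 had a log2 fold change of 0.06 (SE 0.0525, adjusted p = 0.742).

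**Figure D3:**
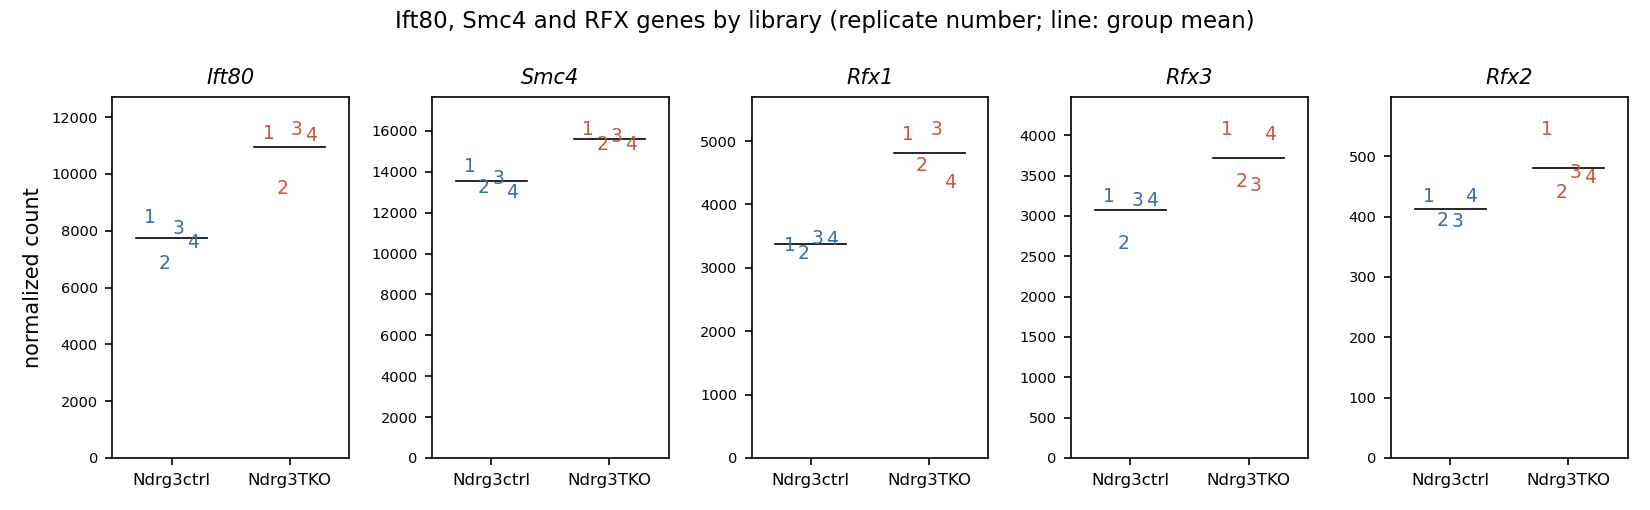
Normalized counts of Ift80, of Smc4 beside it, and of 3 RFX genes, picked after their values were seen, with each library drawn as its replicate number and group means as lines, on axes starting at 0. In each panel the 4 Ndrg3TKO libraries lie above the 4 Ndrg3ctrl libraries, with log2 fold changes of 0.50, 0.21, 0.51, 0.28 and 0.22 from left to right, a separation seen in 7.04% of all tested genes in either direction. Rfx5 and Rfx7 of the same list are not drawn.

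Since Rfx1 changed, promoters from RefSeq (GRCm38.p6, from 250 bases before to 50 bases after the start of the gene) were searched for the X-box on both strands. They were at hand for 8 of the 10 genes, all but Ift80 and Ift81. For Ift46 the RefSeq window (chr9:44772759-44773058) lies inside the gene body used here, which starts at 44767908. One arm of the X-box, GTTGCC, occurred in 4 of the 8, in Ift27, Ift57, Ift88 and Ift140, and in 12.5% of all 32851 promoters. A pair of arms, GTTNCC followed after 0 to 3 bases by GGNAAC, occurred in 1 of the 8, Ift57, and in 0.804% of all promoters, and it overlaps one of the single arms counted there. The other motifs searched on both strands were also more frequent in the 8 promoters than in all promoters. CCAAT occurred in 6 of the 8 and in 37.4% of all, the GC box GGGCGG in 5 and 35.7%, and the ETS site CCGGAAG in 2 and 8.86%. A match of letters is a description and does not show binding. Ift57 has matches that begin 87 and 60 bases before the start and Ift140 has one that begins 109 bases before it. Rfx1 itself has an arm at the first base after its start. Rfx2 and Rfx3 have an arm too, beginning 116 bases before and 31 bases after their starts. The promoters of Ift57, Ift140 and Rfx1 are shown because they hold the pair, a single arm in a promoter of a listed gene, and the arm at the gene that changed. Arms and the pair are in capitals, and each sequence is given 5′ to 3′ on the strand of its gene (chr16:49699044-49699343 plus for Ift57, chr17:25015836-25016135 plus for Ift140 and chr8:84066586-84066885 plus for Rfx1).
Ift57: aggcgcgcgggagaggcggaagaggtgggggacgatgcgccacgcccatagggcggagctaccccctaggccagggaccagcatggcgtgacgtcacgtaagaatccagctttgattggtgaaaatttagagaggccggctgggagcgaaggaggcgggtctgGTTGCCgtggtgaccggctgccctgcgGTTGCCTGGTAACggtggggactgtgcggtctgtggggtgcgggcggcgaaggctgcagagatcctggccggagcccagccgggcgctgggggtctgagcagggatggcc
Ift140: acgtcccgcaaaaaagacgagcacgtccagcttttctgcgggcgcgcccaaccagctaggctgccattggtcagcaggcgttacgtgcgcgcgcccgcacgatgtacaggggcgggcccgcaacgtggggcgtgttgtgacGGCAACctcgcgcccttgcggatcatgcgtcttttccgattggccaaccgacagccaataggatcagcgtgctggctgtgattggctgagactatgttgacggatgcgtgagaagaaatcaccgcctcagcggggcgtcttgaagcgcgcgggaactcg
Rfx1: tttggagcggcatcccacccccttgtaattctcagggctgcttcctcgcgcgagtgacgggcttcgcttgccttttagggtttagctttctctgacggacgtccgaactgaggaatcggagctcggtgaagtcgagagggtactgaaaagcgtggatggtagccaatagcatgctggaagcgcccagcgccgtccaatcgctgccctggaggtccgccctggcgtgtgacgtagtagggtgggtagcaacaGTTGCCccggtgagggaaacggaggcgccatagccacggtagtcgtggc
The 4 listed genes with an arm, Ift27, Ift57, Ift88 and Ift140, had log2 fold changes of −0.08, 0.14, −0.04 and −0.02, and the 4 without one, Ift20, Ift46, Ift52 and Ift74, had −0.15, 0.07, −0.04 and 0.18.

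The nearest gene outside the Ift80 body is Smc4, a core ATPase of the condensin complexes. It lies head to head with Ift80 on the opposite strand (chr3:69004738-69034623), with 167 bases between the gene bodies. Smc4 had 14271, 13226, 13649 and 12969 normalized counts in Ndrg3ctrl replicates 1 to 4 and 16075, 15339, 15709 and 15337 in Ndrg3TKO. The groups did not overlap, but the log2 fold change of 0.21 (SE 0.0514) did not pass the threshold (adjusted p = 0.0807). Smc4 passed in DESeq2 (adjusted p = 0.00246) and with the presence of Y-linked RNA as a covariate (adjusted p = 0.0295). It did not pass with RLE scaling (adjusted p = 0.0853) or without the filter on low counts (adjusted p = 0.0870). With 1 library left out in turn it passed in 0 of 8 fits, with log2 fold changes between 0.19 and 0.23 and adjusted p between 0.0909 and 0.255. On the other side, the nearest tested gene, 1110032F04Rik, lies 20335 bases from the Ift80 body and had a log2 fold change of −0.34 (SE 0.134, adjusted p = 0.360).

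Of 30 genes with a row in the table within 500 kb of the Ift80 body, 13 were tested. In edgeR 0 of them passed, with a median log2 fold change of 0.11, and in DESeq2 1 passed the adjusted threshold. In edgeR 6 of 13 had an unadjusted p under 0.05, against 10.9% of all tested genes. Of the 6, Smc4, Mir15b, Gm20689 and Gm20691 were higher in Ndrg3TKO. Gm17641 and 1110032F04Rik, whose bodies overlap, were lower. Some of the 6 lie inside Smc4 or Ift80 or overlap one another, so they are not independent. Trim59, a ubiquitin ligase gene beyond Smc4, had a log2 fold change of 0.11 (SE 0.0771, adjusted p = 0.638) and Kpna4, an importin gene, −0.06 (SE 0.0463, adjusted p = 0.680). The microRNA gene Mir15b had the largest value of the 13 (1.31, SE 0.370, adjusted p = 0.138), without overlap, at no more than 38 raw counts. Mir15b lies inside the Smc4 body on the same strand, so reads of unspliced Smc4 RNA cannot be told apart from its own. Mir16-2, beside Mir15b, had −0.01 (SE 0.213, adjusted p = 0.989) at no more than 65 raw counts. On the other side of Ift80, Gm17641 had −0.58 (SE 0.245, adjusted p = 0.401) at no more than 40 raw counts. Within the Ift80 body lie the processed pseudogenes Gm20689, Gm18588 and Gm20691, on the strand of Ift80 and outside its exons. They had log2 fold changes of 0.57 (SE 0.259, adjusted p = 0.445), 0.31 (SE 0.267, adjusted p = 0.725) and 0.82 (SE 0.224, adjusted p = 0.126), at no more than 89 raw counts in any library. Reads of processed pseudogenes can be shared with their parent genes, so these values are uncertain. Reads of unspliced Ift80 RNA cannot be told apart from those of these pseudogenes either.

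**Figure D4:**
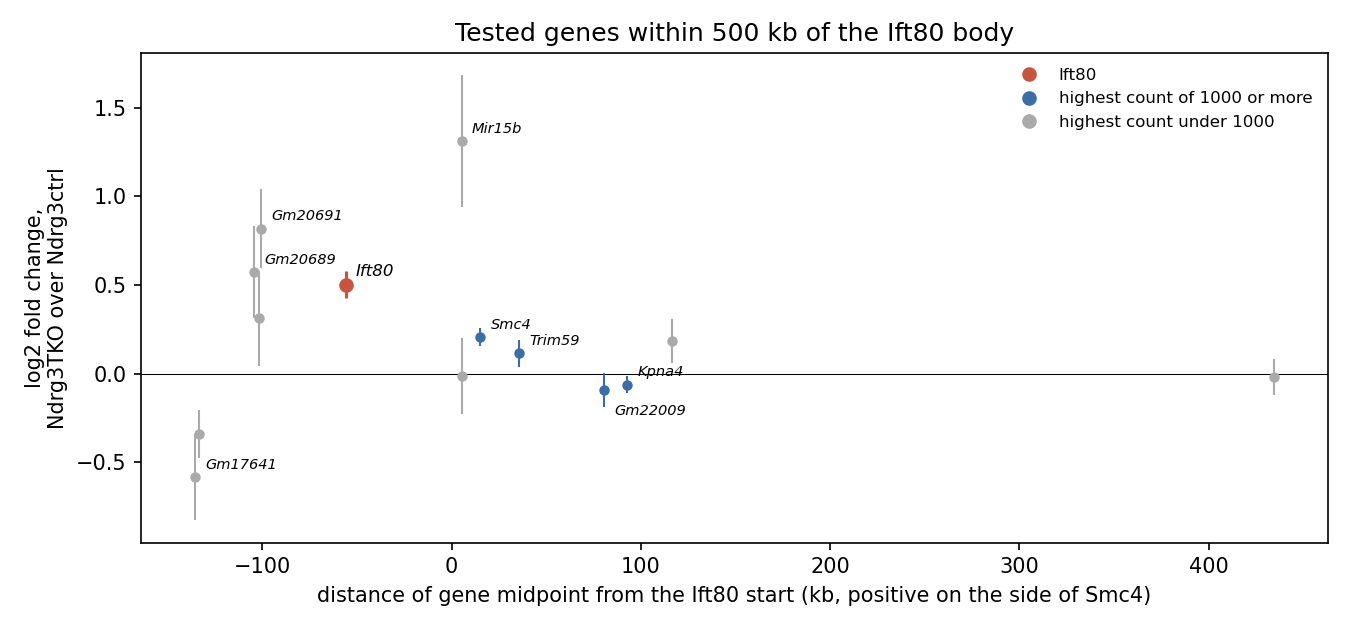
Log2 fold change with its standard error for Ift80 and the 13 tested genes within 500 kb, against the distance of each gene's midpoint from the Ift80 start in kb, with genes coloured by their highest raw count. Ift80 lies at 0.50 and Smc4 at 0.21, while the larger values of Gm20691, Mir15b and Gm20689 rest on at most 88, 38 and 89 raw counts.

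Among signalling genes that depend on cilia in other cells, the Hedgehog list had 4 of 13 genes tested and 0 past the threshold in edgeR (1 of 4 at an unadjusted p under 0.05 in edgeR, against 10.9% of all tested genes, and 1 past the adjusted threshold in DESeq2). The ligand gene Shh and the effector Gli3 had 0 counts in every library, which allows up to 0.142 CPM in the shallowest one (3 counts, for counting error only). Ptch1, the Hedgehog receptor, had 4200 ± 232 and 4396 ± 297 normalized counts (log2 fold change 0.07, SE 0.0592, adjusted p = 0.740). Smo, the transducer that enters the cilium, had 643 ± 24.4 and 509 ± 49.7, without overlap (−0.33, SE 0.0807, adjusted p = 0.0700). It passed in DESeq2 (adjusted p = 0.0121). With 1 library left out in turn its log2 fold change lay between −0.40 and −0.30 and its adjusted p between 0.0325 and 0.202, and it passed in 1 of these 8 fits, without Ndrg3TKO replicate 1.

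The endosomal recycling and synapse partners of IFT20 were tested for 19 of 19 genes, and 0 passed in edgeR (2 of 19 at an unadjusted p under 0.05 in edgeR, against 10.9% of all tested genes, and 1 past the adjusted threshold in DESeq2). Rab8a, the recycling GTPase with the most counts, had 6054 ± 348 and 5805 ± 263 normalized counts (log2 fold change −0.06, SE 0.0549, adjusted p = 0.745). Ehd1, a membrane-remodelling ATPase of recycling endosomes, had 3633 ± 287 and 2935 ± 286, without overlap (−0.31, SE 0.0718, adjusted p = 0.0622). It passed in DESeq2 (adjusted p = 0.0147). Leaving out each library in turn gave log2 fold changes between −0.38 and −0.25 and adjusted p-values between 0.0106 and 0.189, and it passed in 1 of these 8 fits, without Ndrg3TKO replicate 2.

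**Figure D5:**
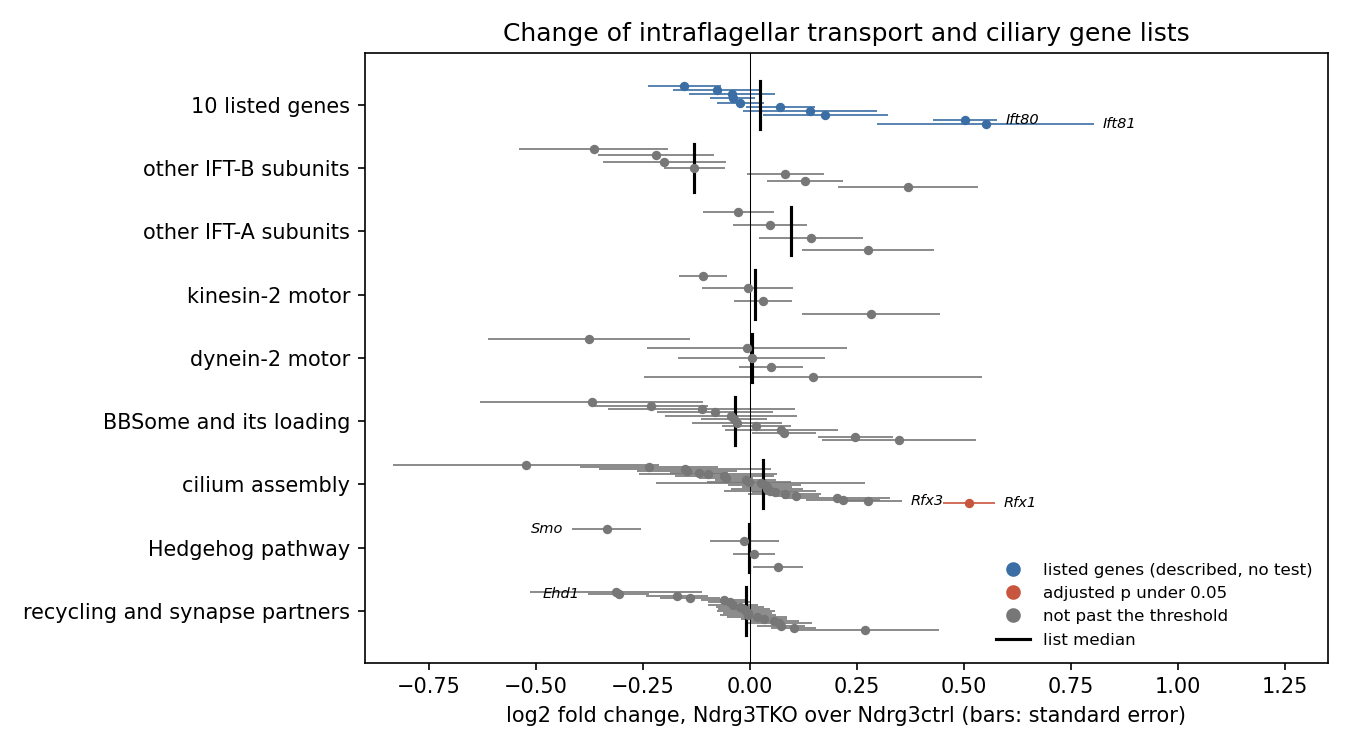
Log2 fold change, Ndrg3TKO over Ndrg3ctrl, with its standard error for each tested gene of the 10 listed genes and of the 8 other lists, with the list medians as black lines. Rfx1 at 0.51 is the 1 tested gene of the 8 other lists past the threshold, and the list medians lie between −0.13 and 0.10.

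The genes whose log2 CPM followed Ift80 most closely over the 8 libraries were 5930430L01Rik, Slc16a5, Adamtsl2, Amz2 and Ric1 (Pearson's r = 0.99, 0.99, 0.98, 0.98 and 0.98, as a description). These coefficients include the difference between the groups. Smc4 ranked 38 (r = 0.95) and Rfx1 ranked 94 (r = 0.92) of all tested genes, whereas among the other listed genes Ift81 was closest (r = 0.83, rank 353) and Ift20 was inverse (r = −0.70). After removal of the group means the closest were Exoc5, a subunit of the exocyst, 4930481A15Rik, 9330198N18Rik, Gm9967 and Myb (r = 0.99, 0.99, 0.97, 0.97 and 0.97). On this measure Smc4 ranked 1485 (r = 0.66) and Rfx1 ranked 3762 (r = 0.40). By Spearman's rho, which has many ties with 8 libraries, 0 of the first 5 and 1 of the second 5, Exoc5, were again among the closest 5.

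Markers of other cells were low or did not pass the threshold, with 1 exception. Multiciliated cell markers were near 0, with the summed level of the 4 markers between 0.0338 and 0.367 CPM, led by Foxj1 with at most 11 raw counts in any library. The summed myeloid level (3 markers, 0.298 to 1.08 CPM, led by Lyz2, beside Itgam) was low as well, and 0 genes of that list reached the filter. Thymic epithelial markers (3 markers, led by Epcam, with Krt8 near 0) summed to 2.30 ± 0.601 CPM (SD, n = 4) in Ndrg3ctrl and 1.72 ± 0.491 in Ndrg3TKO, and Epcam had a log2 fold change of −0.44 (adjusted p = 0.547). CD4 T cell markers (Cd4 and Zbtb7b) summed to 0.883 ± 0.673 and 0.668 ± 0.201 CPM, and gamma delta T cell markers (Trdc, with Sox13 and Blk low) to 12.5 ± 1.74 and 12.1 ± 1.63. CD8 T markers (5 genes, led by Cd8a) summed to 5122 ± 305 and 5158 ± 162 CPM.
The double-positive thymocyte markers (4 genes, of which Rag1 and Dntt were tested) summed to 24.9, 17.1, 16.6 and 17.3 CPM in Ndrg3ctrl replicates 1 to 4 and to 28.2, 20.8, 22.2 and 24.0 in Ndrg3TKO. They were led by Dntt, the terminal transferase (0.45, SE 0.110, adjusted p = 0.0783), whereas Rag1 had −0.46 (adjusted p = 0.823) and Rag2 at most 4 raw counts. The NKT markers (3 genes) summed to 332 ± 28.3 and 318 ± 24.9 CPM, led by Il2rb (adjusted p = 0.774), which CD8 T cells express as well. Their Klrb1c rose, from 8, 13, 6 and 3 raw counts in Ndrg3ctrl to 47, 47, 61 and 66 in Ndrg3TKO (log2 fold change 2.62, SE 0.358, adjusted p = 0.00149), while Zbtb16, the defining NKT factor, had at most 10 raw counts. By staining with a CD1d tetramer, the study found invariant NKT cells nearly missing from the whole thymus of Ndrg3TKO mice. Which cells carried the Klrb1c reads was not tested. Whether the cells behind Klrb1c or Dntt took part in the differences of Ift80 and Rfx1 was not tested.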

How the data were processed

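Libraries were made from total RNA of sorted cells with a stranded kit after removal of ribosomal RNA. The authors used cutadapt for trimming and STAR for alignment to GRCm38.p4 with an earlier GENCODE release than the one used here, and featureCounts for counts per gene. The deposited values are raw counts, not normalized, and strand and multimapping settings are not given in the sources used here.

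Counts were filtered (filterByExpr), TMM-scaled and tested with edgeR 4.0.16 in R 4.3.3 (glmQLFit robust, glmQLFTest, Benjamini-Hochberg, threshold 0.05, n = 4 per group), where the study used DESeq2. Depth was 21126698 to 32668081 counts per library. A floor of 3 counts covers counting error only, as PCR copies cannot be recognised without molecular identifiers. Replicates of a group differed beyond sampling noise. Symbols, positions and lengths came from the GENCODE M21 annotation (GRCm38), which matched 98.5% of identifiers.

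The members and lists were chosen with earlier results of these data known. Named are the 10 genes, Ndrg3, of each list the genes past the threshold, with most counts and with the smallest p, genes overlapping or flanking Ift80, the 5 most like Ift80, and defining markers. Rfx2, Rfx3, Rfx5, Ttc30a1, Kpna4, Mir15b, Shh and Gli3 were added after their values were seen. DESeq2 1.42.0, RLE scaling, other filters, a Y-linked covariate, a replicate block and leaving out each library were tried. Procedures were tested on simulated data. One list of cell type markers is not reported here.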

Additional observations from a re-analysis of the deposited data

Results flagged for a closer look

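Among 44 groups of 4 libraries checked (normalized counts of 19 genes, library totals, scaling factors and the Ift80 share), 2 had a library far from the other 3, where chance flags about 1 in 20. Ift80 in Ndrg3TKO replicate 2 had 9491 normalized counts, below the 11357 to 11568 of the other Ndrg3TKO libraries and above all Ndrg3ctrl libraries. Without it the Ift80 log2 fold change was 0.56. Rfx3 in Ndrg3ctrl replicate 2 had 2654 normalized counts, below the 3189 to 3240 of the other Ndrg3ctrl libraries, and without it the log2 fold change of Rfx3 was 0.21 (edgeR, adjusted p = 0.252).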

How the results depend on the processing

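The Ift80 log2 fold change lay between 0.45 and 0.56 under all 14 alternatives and that of Ndrg3 between −0.67 and −0.61, with Ndrg3 and Rfx1 past the threshold in each. The number of genes past the threshold was 168 and became 309 in DESeq2, 274 without a filter on low counts and 437 with a Y-linked covariate, and 90 to 158 with 1 library left out. The number in the 8 other lists was 1 and became 3 in DESeq2 and 3 without the filter (Smo and Ehd1 beside Rfx1), 4 with the covariate (Rfx3 as well), and 1 to 3 with 1 library left out. Beside Ift80 it was 0 and became 1 in DESeq2 (Smc4), 2 without the filter (Mir15b and Gm20691) and 2 with the covariate (Smc4 and Gm20691). The cause of these moves was not tested. Fewer libraries enter when 1 is left out, and more genes are tested without the filter.

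The ratio of Ift80 to Ift52 per length was 1.82 with the union of exons, 2.39 with the longest transcript and, as a setting chosen after seeing the data, 4.50 with coding transcripts alone, and 1.76 to 1.89 with 1 library left out. Spearman's rho kept 0 of the 5 genes most like Ift80 and 1 of the 5 by deviations.

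The labels number the libraries of both groups 1 to 4. Deviations of same-numbered libraries correlated across genes with r = 0.18, 0.42, −0.06 and 0.30. Their mean was 0.21, against −0.07 for libraries of different numbers. Deviations cancel within each group, so the second mean is nearly fixed by the first and is no separate baseline. Not each of the same-numbered r values was above 0.1, so the numbers were not taken to pair the mice. The library identifiers fall into runs that hold both groups, and the labels do not say whether these runs were batches. With the replicate block, 800 genes passed, 5 of them in the other lists (Rfx1, Rfx3, Smo, Ehd1 and Lztfl1) and 3 beside Ift80 (Smc4, Mir15b and Gm20691), and the Ift80 log2 fold change was 0.50. Ift81 rests on 17 to 56 raw counts per library, and genes below the filter were not tested with it on.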
